A study of Mus musculus with 10 samples.

Results

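Peaks of N6-methyladenosine (m6A) that the annotation column of the deposited peak lists places in the 3′ untranslated region (3′ UTR) are described here, in all 3T3-L1 lists but 1. Every row annotated 3′ UTR in the lists labelled DMSO Pre, DMSO MCE, DMSO Diff and rhein MCE was taken, which gave 6174 of 13965 peaks, or 44.2%. DMSO Pre gave 1223 of 2824 (43.3%, interval 41.5 to 45.1), DMSO MCE 2294 of 5128 (44.7%, 43.4 to 46.1), DMSO Diff 1282 of 2944 (43.5%, 41.8 to 45.3) and rhein MCE 1375 of 3069 (44.8%, 43.1 to 46.6). The share was therefore alike in the 4 lists within its counting error, while the number followed the length of the list.

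The 3′ UTR is the part of an mRNA after the stop codon, where RNA-binding proteins and microRNAs act on stability, translation and localization. m6A is written by a methyltransferase complex around METTL3 and METTL14, is removed by the demethylases FTO and ALKBH5, and is bound by reader proteins of the YTH family. It is known to favour the sequence GGAC, the most common form of the motif DRACH, in which D stands for any base but C, R for a purine and H for any base but G, and to be dense around stop codons.

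The 10 libraries were 5 immunoprecipitated and 5 input libraries of 3T3-L1 cells, mouse fibroblasts that become fat cells after hormonal induction, with 1 pair for each condition. Cells given the solvent dimethyl sulfoxide were growth-arrested preadipocytes (DMSO Pre), preadipocytes in mitotic clonal expansion (DMSO MCE) or cells labelled mature adipocytes (DMSO Diff). Cells of the rhein groups received 20 µM rhein, an anthraquinone studied as an inhibitor of FTO, from day 0 to day 3 and were labelled with the MCE or the Diff stage. With 1 immunoprecipitate and 1 input per condition there was no replicate check, so the intervals given are 95% intervals (Wilson, or Newcombe for a difference) for the counting of peaks and for nothing else. The lists hold no read numbers and no expression values, so the depth is unknown and the labelled stages could not be checked against marker genes. A longer list and a peak missing from a list can also follow the depth or the amount of an RNA, whose part was not tested. All 1375 3′ UTR peaks of the rhein MCE list had a peak of identical start, end and strand in the rhein Diff list. The rhein lists were therefore counted as 1, and which labelled stage they stand for could not be told apart.

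GGAC sites in 3′ UTRs are shown first, because they let the position and the sequence under a recurring peak be seen together. The first set was taken from genes with a placed 3′ UTR peak where the peaks of all 4 lists share at least 25 transcript bases. The shared bases were not limited to the 3′ UTR and can include coding sequence, while every printed site lies in the 3′ UTR. Such a stretch was found in 188 genes, and it held GGAC in 123 of them (65.4%, 58.4 to 71.9). Of the 8 genes that the naming rule takes for recurrence in all 4 lists, 3 (Akap2, Col6a1 and Gas1) had such a site. The 8 printed were therefore chosen, after the values were seen, among the genes that do hold one, in order of their lowest score percentile over the lists, so that their GGAC is no finding. Sequences run 5′ to 3′ on the strand of the transcript in the GRCm38 (mm10) genome, capitals mark the GGAC, and each site is the one nearest to the middle of its stretch.
Akap2, chr4:57894124-57894153, plus strand: aaaggggtgagagGGACaaagaaagaaagg
Col6a1, chr10:76709524-76709553, minus strand: cacacacgtggctGGACacacatggcatgg
Gas1, chr13:60175646-60175675, minus strand: actcttcctgggtGGACagggcccagctcg
Vcan, chr13:89657107-89657136, minus strand: ggtttggattatgGGACtgccgtctggtca
Smim10l1, chr6:133106464-133106493, plus strand: tttcgttgattatGGACagccatgtttcta
Zfp91, chr19:12769998-12770027, minus strand: actttgggcactgGGACagtgcagactttg
Sh3pxd2a, chr19:47266893-47266922, minus strand: cagacacggggatGGACaagatgggagggg
Wdr26, chr1:181177696-181177725, minus strand: atgattgatagctGGACagacatgctcgtc

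These 8 sites lay 1170 bases after the stop codon in Akap2, 19 in Col6a1, 125 in Gas1, 108 in Vcan, 860 in Smim10l1, 25 in Zfp91, 78 in Sh3pxd2a and 94 in Wdr26. Thus 6 of the 8 were within 200 bases of it. Each was covered by exactly 1 peak in each list. The score of a peak is an authors' value of unknown scale, used here to rank the peaks within a list. For Akap2, which encodes an anchor of protein kinase A, the score of the covering peak was 45.9 (DMSO Pre), 27.6 (DMSO MCE), 53.8 (DMSO Diff) and 59.2 (rhein MCE). It was 24, 65.6, 144 and 54.2 in the same order for Vcan, the matrix proteoglycan versican. Since each list has its own range of scores, ranks within a list are given where lists are set side by side.

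Another set shows GGAC sites under peaks that differed in score or presence between lists, and these genes were picked after their values were seen. In Jun and Fstl1 the GGAC is followed by G, so these sites do not match DRACH.
Cebpb, chr2:167690139-167690168, plus strand: gcgtgtggacacgGGACtgacgcaacacac
Jun, chr4:95050012-95050041, minus strand: cggcagactttgcGGACgggctgtgcccgc
Cd248, chr19:5070483-5070512, plus strand: gagaccacaccaaGGACttatgggggctgc
Fstl1, chr16:37834141-37834170, plus strand: aaaggacaccttgGGACgagaggcaactaa
Inafm2, chr2:118746760-118746789, plus strand: cacgattcgccggGGACtcggggtttgatc

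The peak over the Cebpb site ranked 8 of 5128 in DMSO MCE with a score of 85.7. Cebpb encodes a transcription factor induced early in adipogenesis. The same site was covered at rank 2296 in DMSO Pre (score 5.38), 504 in DMSO Diff (12.8), and at rank 2225 in the rhein MCE list (6.80). The Jun site, in the gene of a subunit of the AP-1 factor, was covered at rank 20 in DMSO MCE (73.3) and at ranks 1794, 2575 and 2120 in DMSO Pre, DMSO Diff and rhein MCE. Both sites were thus covered in every list, with the high rank in DMSO MCE. The site in Cd248, which encodes the stromal surface protein endosialin, was covered in the 3 DMSO lists (6.56, 45.7 and 6.72) and by no rhein MCE peak. The sites of Fstl1, a secreted glycoprotein, and Inafm2 were covered in rhein MCE alone.

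Each peak was placed anew on a transcript of its own strand, which checks the annotation column. The midpoint lay in the 3′ UTR of that transcript for 935 of the 1223 DMSO Pre peaks (76.5%, 74.0 to 78.7), 1716 of the 2294 DMSO MCE peaks (74.8%, 73.0 to 76.5), 932 of the 1282 DMSO Diff peaks (72.7%, 70.2 to 75.1) and 1019 of the 1375 rhein MCE peaks (74.1%, 71.7 to 76.4). A further 8.01%, 9.07%, 9.52% and 9.53% ran across the stop codon with the midpoint in the coding sequence. Another 11.6%, 13.3%, 14.4% and 12.1% met a 3′ UTR only in another transcript of the same strand. For 3.76%, 2.62%, 3.28% and 4.0% the 3′ UTR belonged to a gene on the opposite strand only. The label thus held for about 3 in 4 rows by midpoint. In reverse, 0 peaks with any other annotation had their midpoint in the 3′ UTR of their transcript. The peaks that passed this placement lay in 1903 genes over the 4 lists, with 744, 1291, 707 and 767 genes in the order DMSO Pre, DMSO MCE, DMSO Diff and rhein MCE, an order kept below wherever 4 values follow each other.

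The gene symbol of the lists differed from the name of the gene whose exons held the peak in 34.9%, 34.2%, 32.3% and 33.7% of the placed peaks. Synonyms were not checked, so these shares can include other names of the same gene. The Cebpb peaks were listed under Tmem189, the DMSO MCE peak of Pdgfra, the receptor that marks adipocyte progenitors, under Mir7025, and those of Akap2 under D630039A03Rik. All gene names here are those of the gene holding the peak.

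By the median, 3′ UTR peaks were longer than the other peaks of their list. The median exonic length was 150, 125, 150 and 150 bases, against 100 bases for the other peaks in each list. In every list the middle 50% of the 3′ UTR peaks began at 75 bases. It ended at 225 bases in both DMSO Pre and DMSO MCE and at 200 in DMSO Diff and rhein MCE. For the other peaks it ran from 75 to 200 bases in every list. Peaks of 50 bases made up 19.4%, 20.2%, 19.5% and 16.8% of the 3′ UTR peaks and 19.9%, 23.6%, 23.3% and 18.8% of the other peaks. Peaks over 300 bases made up 5.81%, 5.93%, 6.97% and 6.32% of the 3′ UTR peaks and 4.38%, 3.42%, 4.02% and 4.47% of the other peaks.

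The peaks lay toward the stop codon. The median distance from the stop codon to the midpoint was 344, 312, 358.5 and 348 spliced bases, and the median distance to the transcript end was 1183, 1187, 1158.5 and 1200 bases. The midpoint was nearer to the stop codon than to the end for 71.6% (68.6 to 74.4), 73.0% (70.9 to 75.1), 69.7% (66.7 to 72.6) and 67.7% (64.8 to 70.5). Within 200 bases of the stop codon lay 33.9% (30.9 to 37.0), 36.4% (34.1 to 38.7), 33.8% (30.8 to 36.9) and 32.4% (29.6 to 35.3). Within 200 bases of the end lay 11.4% (9.56 to 13.6), 10.8% (9.40 to 12.3), 10.8% (9.0 to 13) and 13.6% (11.7 to 15.9). The intervals of the 4 lists overlapped for the stop codon and for the end.

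Because 3′ UTRs differ in length, the density was also taken per kb in those of at least 1000 bases. Only 3′ UTRs that held a placed peak of the list were counted, which were 536, 916, 505 and 544. The values are therefore not those of long 3′ UTRs in general. In the first 100 bases after the stop codon it was 1.87, 2.47, 2.22 and 1.99 midpoints per kb, from 700 to 1000 bases it was 0.435, 0.429, 0.429 and 0.435, and in the last 100 bases before the end it was 0.168, 0.197, 0.317 and 0.368. The density thus fell away from the stop codon in every list and was lowest within the last 200 bases before the end. The last value rests on 9, 18, 16 and 20 midpoints. The share of bases under a peak followed the same course, with its highest value of 28.5%, 32.3%, 29.9% and 30.7% between 50 and 150 bases after the stop codon, and 1.36%, 1.46%, 2.19% and 2.68% in the last 50 bases.

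**Figure D1:**
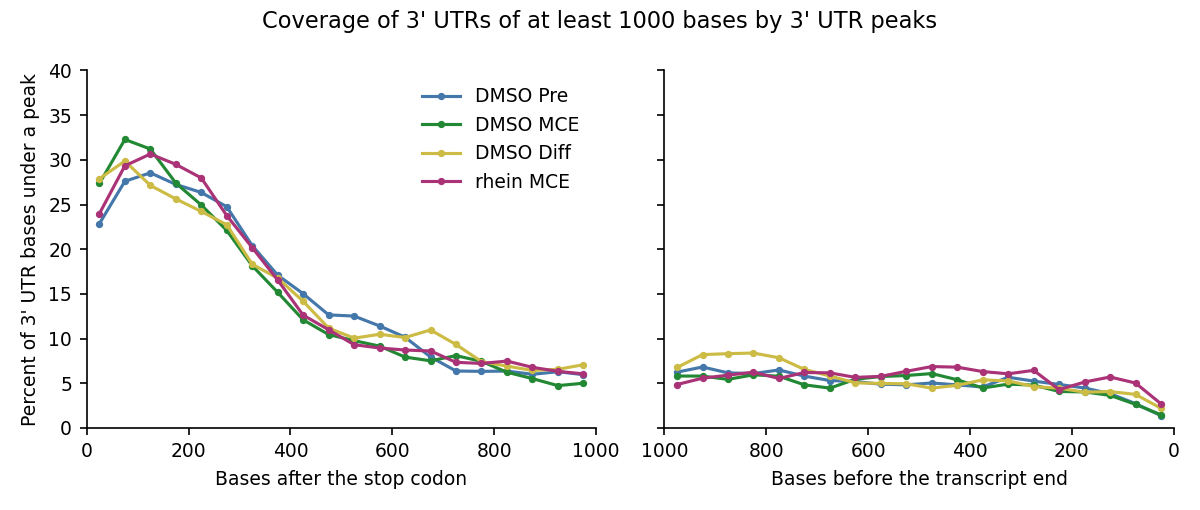
Percent of 3′ UTR bases under a 3′ UTR peak (y axis) against bases after the stop codon (left) and before the transcript end (right) in bins of 50 bases, for 3′ UTRs of at least 1000 bases, 1 line per peak list. Only 3′ UTRs that held a placed peak of the list were counted. All 4 lines reach their highest value, 28.5% to 32.3%, within 150 bases of the stop codon and are at 1.36% to 2.68% in the last bin before the end.

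Most genes held 1 peak in the 3′ UTR. At least 2 were found in 144 of 744 genes (19.4%, 16.7 to 22.3), 293 of 1291 (22.7%, 20.5 to 25.1), 155 of 707 (21.9%, 19 to 25.1) and 177 of 767 (23.1%, 20.2 to 26.2). Genes with more peaks had longer 3′ UTRs, with a median length of 1699, 1563.5, 1645.5 and 1658.5 bases for 1 peak and 2623, 2507, 2555 and 2780 for 3 or more. Of neighbouring peaks in a transcript, 25.9%, 27.4%, 29.9% and 20.2% were at most 50 bases apart. Some of these pairs can be 1 enriched stretch listed in pieces.

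Sned1, which encodes a secreted protein of the extracellular matrix, held the most 3′ UTR peaks in DMSO Pre and in DMSO Diff. Its 4787-base 3′ UTR carried 7, 2, 10 and 4 peaks. Lrrc58 held 6, 3, 4 and 2 peaks and Nlgn2, a synaptic adhesion protein, 4, 3, 2 and 2. Il6st, the signalling subunit shared by the receptors of the interleukin-6 family, held 3, 7, 1 and 3. Gas7 held 2, 6, 4 and 8, and Nid1, a basement membrane protein, 1, 6, 6 and 3. Slc39a14, a zinc and iron transporter, held 0, 3, 6 and 3. Fosl2, a relative of Jun's partner Fos, held 0, 3, 1 and 5, and Srxn1, an antioxidant enzyme, 0, 1, 1 and 5. The list with most peaks therefore differed from gene to gene.

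Sned1 overlaps the end of Mterf4 on the opposite strand, and its map was chosen after the values were seen. In DMSO Diff the Sned1 peak at chr1:93299235-93299759 had a score of 14.9, and a peak on the Mterf4 strand at chr1:93299236-93299760 had 81.0. In DMSO Pre the same was seen at chr1:93299360-93299484 and chr1:93299361-93299485. Such mirrored spans were not limited to Sned1. Both ends lay in exons of both strands for 45, 91, 48 and 71 of the 3′ UTR peaks (3.74%, 4.03%, 3.84% and 5.27%). For the other peaks it was 2.97%, 3.13%, 2.83% and 3.62%. Of these 3′ UTR peaks, 66.7% (52.1 to 78.6), 81.3% (72.1 to 88.0), 79.2% (65.7 to 88.3) and 87.3% (77.6 to 93.2) had a peak on the other strand. Both ends agreed within 25 bases in 22, 61, 29 and 43 cases. Of the other peaks in exons of both strands, 41.3%, 76.5%, 64.4% and 76.3% had one, so that mirrored spans were not limited to 3′ UTR peaks. Which strand carried the reads at these places could not be told apart from the lists.

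**Figure D2:**
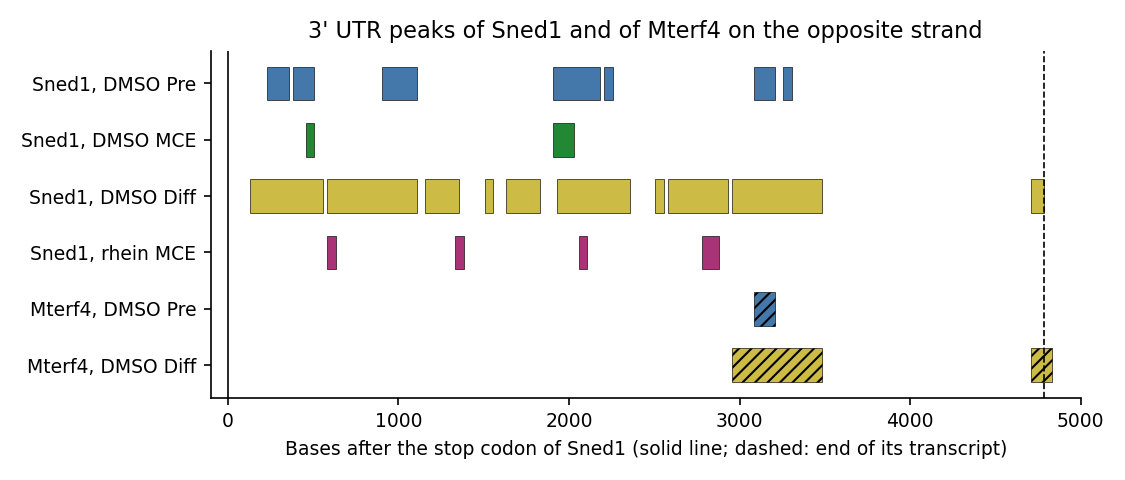
3′ UTR peaks of Sned1 by list, and peaks on the strand of Mterf4 (hatched), against bases after the stop codon of Sned1. DMSO Diff holds 10 Sned1 peaks and DMSO MCE 2, and the hatched peaks lie under or beside Sned1 peaks of the same list.

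A peak is called recurring if a same-strand peak from another list shares 1 base or more with it. About 2 in 3 of the 3′ UTR peaks recurred, except in DMSO MCE. The share with a peak in any of the other lists was 66.2% (63.5 to 68.8) in DMSO Pre, where it was 61.4% for all peaks of the list, and 49.6% (47.5 to 51.6) in DMSO MCE, where it was 47.3%. In DMSO Diff it was 66% (63.4 to 68.5), all peaks 63.7%, and rhein MCE had 70.6% (68.2 to 73.0), all peaks 67.9%. Against the other peaks of the same list, 3′ UTR peaks recurred more often by 8.52 percentage points (4.91 to 12.1), 4.05 (1.30 to 6.79), 4.02 (0.515 to 7.49) and 4.97 (1.66 to 8.26). DMSO MCE was lowest here as the longest list. With each list cut to its 2824 highest scores the shares were 59.8%, 67.4%, 62.7% and 66.7%, so that DMSO MCE was highest instead.

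**Figure D3:**
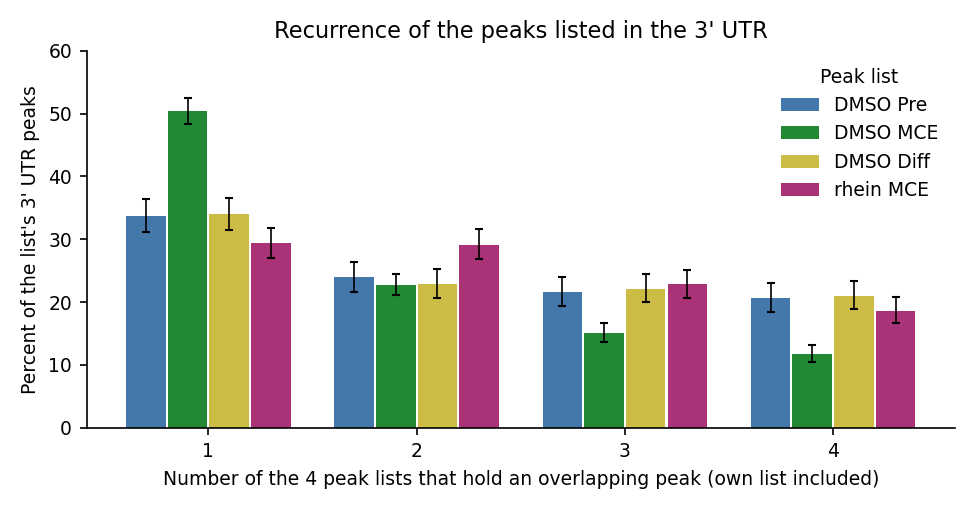
Percent of each list's 3′ UTR peaks (y axis) by the number of the 4 lists that hold an overlapping peak, own list included (x axis), with 95% Wilson bars for counting error over peaks. In DMSO MCE 50.4% were in that list alone, against 33.8%, 34% and 29.4% in DMSO Pre, DMSO Diff and rhein MCE.

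Peaks found in all 4 lists were a minority. They numbered 253 (20.7%, 18.5 to 23.0, all peaks 19.7%), 269 (11.7%, 10.5 to 13.1, all peaks 11.1%), 269 (21%, 18.8 to 23.3, all peaks 19.2%) and 256 (18.6%, 16.6 to 20.8, all peaks 17.9%). For these the excess over the other peaks had an interval above 0 in DMSO Diff alone (3.23 points, 0.364 to 6.14). The shares were close to those of all peaks.

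Pair by pair, 49.1% of the DMSO Pre 3′ UTR peaks recurred in DMSO MCE (all peaks 45.1%), 41.0% in DMSO Diff (38.5%) and 39.2% in rhein MCE (36.5%). Of the DMSO MCE peaks, 26.9% recurred in DMSO Pre (25%), 27.4% in DMSO Diff (26.2%) and 33.8% in rhein MCE (32.3%). Of the DMSO Diff peaks, 38.8% recurred in DMSO Pre (36.3%), 48.0% in DMSO MCE (46.1%) and 43.4% in rhein MCE (40.3%). The pair that shared most was rhein MCE and DMSO MCE, seen from the side of rhein. There 56.0% (53.4 to 58.6) of the 3′ UTR peaks recurred in DMSO MCE (all peaks 53.6%), against 35.3% (32.9 to 37.9) in DMSO Pre (33.7%) and 39.3% (36.8 to 42) in DMSO Diff (37.9%). With the lists cut to equal length the values for rhein MCE were 49.1%, 35.8% and 38.9% in that order. Partners were nearly always listed in the 3′ UTR too, in 96.8% to 98.5% of cases, and had identical spans in 11.8% to 18.8%.

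Recurring peaks were longer, nearer to the stop codon and of higher score. The median length rose from 75, 100, 75 and 100 bases for peaks of 1 list to 225, 225, 225 and 200 for peaks of all 4. A longer peak has more chances to be met. The share within 200 bases of the stop codon was 28.7%, 34.6%, 25.3% and 24.4% for peaks of 1 list, and 43.3% (36.6 to 50.2), 43.5% (37.0 to 50.3), 43.9% (37.3 to 50.7) and 39.9% (33.3 to 46.8) for those of all 4. Their median score percentile went from 48.0, 32.9, 44.5 and 41.6 to 65.8, 86.6, 62.4 and 56.5.

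GGAC was found in most 3′ UTR peaks of each list. Its share was 54.2% (51.0 to 57.4), 52.2% (49.8 to 54.5), 53.0% (49.8 to 56.2) and 53.5% (50.4 to 56.5), where 53.2%, 52.9%, 48.2% and 52.2% of all placed peaks of these lists held it. Windows of the same length in the same 3′ UTRs outside every peak held it in 33.0%, 31.1%, 30.1% and 32.1%. In the middle 100 bases it was present in 50.7%, 49.6%, 49.8% and 48.1% (all placed peaks 50.8%, 50.9%, 45.6% and 47.8%), and in 25.2%, 25.3%, 23.6% and 24.6% of windows outside. The 3′ UTR peaks therefore held GGAC more often than windows outside peaks in the same 3′ UTRs. These windows excluded coding sequence, into which a peak near the stop codon can reach. They were not matched for distance to the stop codon, and the part of position was not tested. Against the other peaks of the list the 3′ UTR peaks differed in DMSO Diff alone, by 8.69 points (4.65 to 12.7) over the whole peak, with intervals that included 0 in the rest. The order of the lists followed the score. Among peaks with a score above 9.97 GGAC was present in 48.5%, 68.4%, 56.9% and 57.4%, so that DMSO MCE went from the lowest share to the highest.

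Per kb, GGAC was 2.45, 2.42, 2.32 and 2.20 times as frequent under the peaks as in the 3′ UTR outside them. It was densest in the 50 bases on the 5′ side of the midpoint, at 9.18, 8.27, 7.89 and 7.71 sites per kb. DRACH, which includes GGAC followed by A, C or T, differed less, with 87.8%, 88.2%, 88.4% and 89.7% of the peaks against 85.0%, 84.4%, 85.0% and 86.5% of windows outside. The peaks were also richer in G and C, with a median of 48.0%, 50%, 46.1% and 47.0% against 45.0%, 45.6%, 43.9% and 45.0% in the 3′ UTR outside, and its part in the GGAC values was not tested.

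GGAC went with both recurrence and position. In the middle 100 bases it rose from 35.5%, 46.2%, 37.5% and 35.9% for peaks of 1 list to 63.7% (56.8 to 70.0), 63.6% (56.9 to 69.9), 66.8% (60.1 to 72.9) and 69.2% (62.4 to 75.2) for peaks of all 4. Among peaks of 100 to 200 bases, where length differs less, the whole peak held it in 52.0%, 61.7%, 54.6% and 45.1% of those of 1 list and in 73.7%, 72.7%, 78.9% and 75.3% of those of all 4. In this last comparison the intervals in DMSO MCE overlapped (56.6 to 66.5 and 58.2 to 83.7). By position, it fell from 59.3%, 56.7%, 57.5% and 55.8% within 200 bases of the stop codon to 43.5%, 42%, 41.4% and 39.6% beyond 600 bases.

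**Figure D4:**
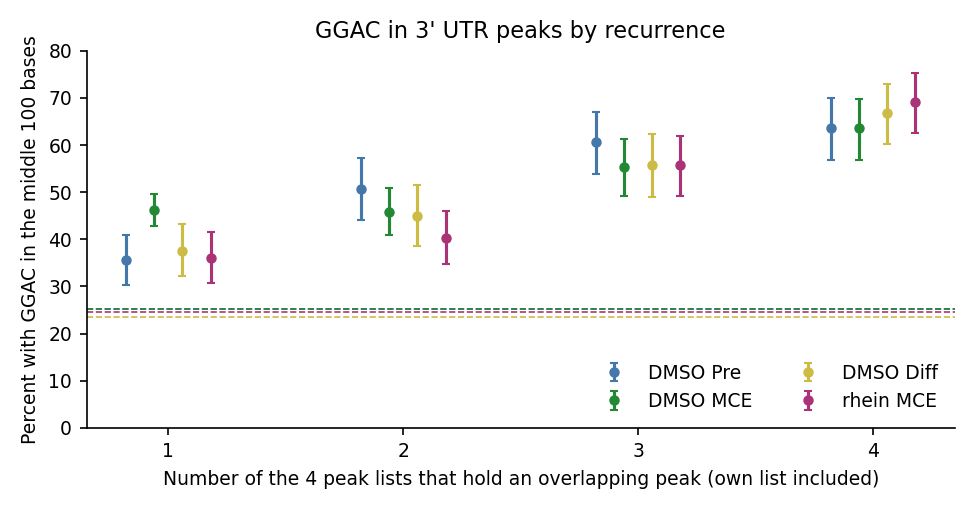
Percent of 3′ UTR peaks with GGAC in their middle 100 bases (y axis) by the number of lists with an overlapping peak (x axis), with 95% Wilson bars, and as dashed lines the percent in windows outside peaks of the same 3′ UTRs. Points of all 4 lists lie between 63.6% and 69.2% at the right, above the dashed lines at 23.6% to 25.3%.

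AATAAA, the letters of the poly(A) signal, occurred in 12.1% (10.1 to 14.3), 9.91% (8.58 to 11.4), 13.7% (11.7 to 16.1) and 14.7% (12.7 to 17) of the peaks against 9.37%, 9.43%, 8.72% and 9.45% of windows outside. Over whole peaks it was thus more frequent, with the whole interval, in every list but DMSO MCE. In the middle 100 bases it was at 7.49% (5.97 to 9.35), 6.88% (5.77 to 8.17), 9.33% (7.63 to 11.4) and 10.1% (8.40 to 12.1). Windows of that length outside held it in 6.85%, 7.13%, 6.89% and 6.97%. At this length the interval lay above these values in DMSO Diff and rhein MCE alone. ATTTA, the core of AU-rich elements, was at 15.8% (13.6 to 18.3), 14.9% (13.3 to 16.6), 17.1% (14.8 to 19.6) and 15.4% (13.3 to 17.8) against 18.9%, 18.1%, 18.9% and 18.4%. Over whole peaks ATTTA was thus less frequent, with the whole interval, in every list but DMSO Diff. In the middle 100 bases its interval lay below the windows outside in DMSO MCE and rhein MCE alone. TGTANATA, the letters bound by Pumilio proteins, occurred in 2.89%, 2.56%, 2.90% and 3.04% against 3.4%, 3.38%, 3.03% and 3.33%. All motifs were searched on the transcript strand, and a match is a match of letters, not a bound site.

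Scores set rhein MCE apart. Among the highest 25% of scores of each list were 28.4% (25.9 to 31.0) of the 3′ UTR peaks in DMSO Pre and 22.4% of the other peaks, a difference of 5.95 points (2.71 to 9.21). In DMSO MCE the difference was 2.33 points (-0.0562 to 4.72) and in DMSO Diff 2.00 points (-1.14 to 5.18). In rhein MCE it was 18.5% (16.6 to 20.7) against 30.2%, or -11.7 points (-14.7 to -8.65). Thus 3′ UTR peaks were under-represented among the peaks of high score in the rhein list and not in the DMSO lists. Of 5 limits on the score that were computed, the difference in rhein MCE was below 0 with its whole interval at each, from -4.70 to -11.7 points. In DMSO Pre its interval was above 0 at 3 of the 5, and included 0 at the highest 10% (1.71 points, -0.515 to 4.01) and at a score above 33.2 (0.0795 points, -1.05 to 1.29). In DMSO MCE and DMSO Diff every interval included 0.

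**Figure D5:**
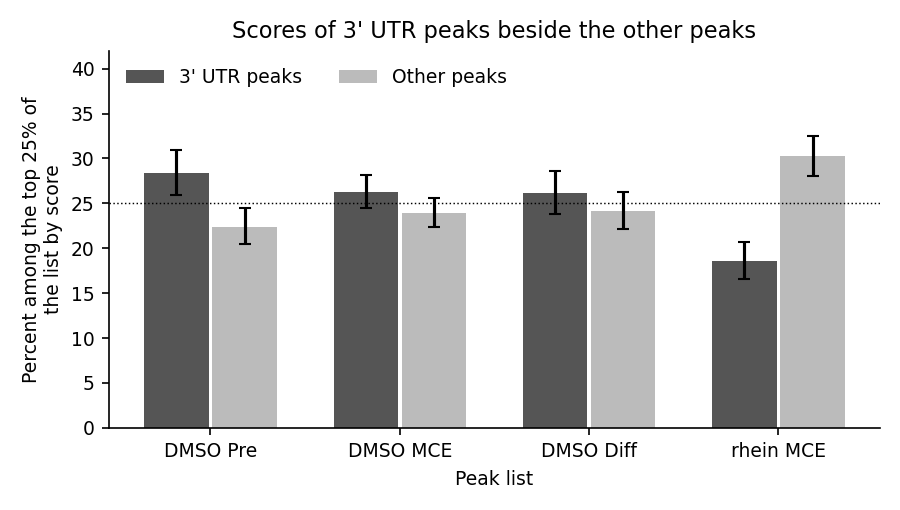
Percent of 3′ UTR peaks (dark bars) and of the other peaks (light bars) that are among the highest 25% of scores of their list (y axis), by peak list, with 95% Wilson bars and a dotted line at 25%. In rhein MCE the dark bar is at 18.5% and the light bar at 30.2%.

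The 3′ UTR peaks of highest score lay partly in the same genes in each list. Mdm2, the ubiquitin ligase that holds down p53, had a score of 335, 75.5, 183 and 79.0, at ranks 2, 15, 4 and 27. The rhein MCE peak of Mdm2 met peaks of 2 other lists. Hspa5, the endoplasmic reticulum chaperone BiP, had 129, 74.9, 138 and 77.8, at ranks 5, 16, 9 and 28. These peaks of both genes had their midpoint before the stop codon of the transcript used, at most 152 bases from it. Adamts1, a secreted metalloprotease, had 3′ UTR peaks across the stop codon at 86.2 (DMSO Diff) and 93.3 (rhein MCE), and the overlapping peaks in DMSO Pre (62.4) and DMSO MCE (59.7) were listed as exonic. DMSO Pre had a separate Adamts1 peak 787 bases after the stop codon, with a score of 86.5.

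Further genes led single lists. In DMSO Pre these were Cnn3, an actin-binding calponin (133), and Dclk1, a microtubule-associated kinase (123), both with peaks of 50 bases without GGAC. In DMSO MCE, Cebpb (85.7) and Jun (73.3) were joined by Pdgfra (71.1, 212 bases after the stop codon). In DMSO Diff they were Col6a1, a chain of collagen VI, and Vcan, both at 144. In rhein MCE they were Cdkn1b, the cell cycle inhibitor p27 (63.9), and Nedd4, a ubiquitin ligase (61.0). The Cdkn1b peak lay 3087 bases after the stop codon and ranked 48, and its overlapping peaks scored 7.5, 14.4 and 8.90 in the DMSO lists.

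Recurrence in all 4 lists at a high rank singled out 8 genes by the naming rule. They were Adamts1, Mdm2, Hspa5, Gas1, Akap2, Cebpb, Col6a1 and Ctsl. At the stop codon of Cebpb, just before the site printed above, the peaks scored 32.9 in DMSO Pre, 38.8 in DMSO MCE and 65.0 in DMSO Diff. The partner in rhein MCE was listed as exonic, covered 50 bases and had the highest score of its whole list, 488. Unlike the DMSO peaks, it ended before the stop codon. Rhein MCE was thus low at the Cebpb site 240 bases into the 3′ UTR and first in the coding sequence just before the stop codon. Rhein MCE also had a Cebpb peak near the transcript end, found in that list alone. That 3′ UTR peak scored higher than the rhein MCE peak over the printed site. Ctsl, a lysosomal protease, scored 45.0, 22.2, 55.7 and 50.3 without GGAC in the DMSO peaks, and Gas1, a growth arrest protein of the cell surface, 64.5, 34.9, 57.6 and 41.6 in the 3′ UTR peaks over the site printed above.

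The 3 peaks of highest score found in 1 list alone were named for each DMSO list. In DMSO Pre they were Cnn3, Col1a2, a chain of collagen I (86.4), and Ryk, a Wnt receptor (50.5), all of 50 bases. In DMSO MCE they were Ndufb1-ps (30.2), another Adamts1 peak 1274 bases after the stop codon (23.6) and Gm20721 (23.5). In DMSO Diff they were Eef1b2, a translation elongation factor (56.0), Nid1 (45.8) and Prrx1, a mesenchymal transcription factor (45.6). Of these 9, Adamts1 and Eef1b2 held GGAC. The placement found no 3′ UTR at the Ndufb1-ps peak, and the Eef1b2 peak met one only in another transcript of its strand. The 5 of highest score in rhein MCE alone were Fstl1 (47.1), Ndufa13, a subunit of respiratory complex I (38.5), Sox4, a transcription factor (38.0), Gabarapl1, an autophagy protein (32.0), and Inafm2 (27.8). Fstl1 and Inafm2 held GGAC.

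The 5 peaks of highest score percentile with overlap in every DMSO list and none in rhein MCE lay in Slc5a3, the myo-inositol transporter (72.5 in DMSO Pre), Cd248 (45.7 in DMSO MCE), Sec62, a protein of the endoplasmic reticulum translocon (56.2 in DMSO Pre), Ccdc50 (40.4 in DMSO Pre) and Met, the receptor of hepatocyte growth factor (40.2 in DMSO Pre). This pattern held for 97 of the 1223 DMSO Pre peaks (7.93%), 91 of the 2294 DMSO MCE peaks (3.97%) and 87 of the 1282 DMSO Diff peaks (6.79%). Its share over all peaks of each list was not computed, so these counts are not read as particular to 3′ UTR peaks.

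Over all annotated coding genes, 890, 1600, 856 and 944 of 21877 held a 3′ UTR peak, which was 61.3%, 61.6%, 61.8% and 61.3% of the genes with any peak. Here and in all gene groups, every peak annotated 3′ UTR on a coding gene counts, also where its midpoint lay outside the 3′ UTR. The gene groups are read beside these values, as counts, since a peak also needs an expressed gene. Immediate-early genes, which answer growth signals within minutes, had 3′ UTR peaks in 9, 17, 11 and 14 of 24, or of 12, 18, 13 and 14 genes with any peak. Ier2, Ier5, Jun, Mcl1 and Zfp36l2 had one in all 4 lists. The Ier2 peaks scored 9.44, 43.4, 5.37 and 11.1. Myc had none in DMSO Pre and peaks within 224 bases of the stop codon in the other lists.

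Of 32 adipogenic regulators, 6, 7, 6 and 6 held a 3′ UTR peak, or of 8, 9, 9 and 6 genes with any peak. Cebpb, Klf9 and Pdgfra held one in all 4 lists. Klf5, a factor that acts after Cebpb in adipogenesis, had none in DMSO Pre and scored 12.8, 20.5 and 52.3 in the lists that follow, in peaks 656 to 694 bases after the stop codon without GGAC. Of 22 adipocyte genes, 2, 5, 1 and 4 held one, or of 4, 5, 2 and 4 with any peak, and no gene did in all 4 lists. Irs2, an adaptor of the insulin receptor, had 4 peaks in DMSO MCE and 3 in rhein MCE (highest 15.0 and 29.4), and 0 in DMSO Pre and DMSO Diff. No 3′ UTR peak was listed in Pparg, Cebpa, Fabp4 or Adipoq.

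Of 20 genes of the m6A machinery found in the annotation, 1, 5, 1 and 3 held a 3′ UTR peak. Those with any peak numbered 7, 13, 6 and 9. Alkbh5 was the gene of this group in all 4 lists, at 6.39, 8.35, 7.36 (with another of 5.29) and 7.01, between 998 and 1860 bases into its 4097-base 3′ UTR. The others were Hnrnpa2b1, Igf2bp2, Rbm15b, Ythdc1 and Ythdf1. Cell cycle genes held one in 4, 7, 2 and 5 of 34, or of 6, 12, 3 and 9 with any peak, with Cdkn1b in all 4 lists.

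Of 26 in the TGF-beta and BMP pathways, 5, 6, 7 and 6 held a 3′ UTR peak, or of 6, 10, 7 and 8 with any peak. Acvr2a, Bmp1 and Bmpr1a held one in all 4 lists. In the Wnt pathway it was 3, 5, 4 and 4 of 28, or of 6, 10, 5 and 7 with any peak. The co-receptor Lrp5 held one in all 4. Focal adhesion and actin genes had one in 9, 11, 7 and 6 of 27, or of 13, 16, 10 and 11 with any peak. Among them were Flnc, Itga5 and Tpm4 in all 4 lists. Matrix genes had one in 9, 8, 6 and 6 of 22, or of 10, 12, 10 and 13 with any peak, with Fbln2, Lox and Vcan in all 4. Collagens had one in 11, 6, 9 and 6 of 44, or of 13, 6, 12 and 8 with any peak. Col5a1, Col5a2, Col6a1 and Col6a2 had one in all 4.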

How the data were processed

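The assay was methylated RNA immunoprecipitation followed by sequencing, with 5 immunoprecipitated and 5 input libraries. Per the study's methods and the submitters' processing notes, reads were trimmed (Trim Galore 0.6.5), aligned to mm10 (HISAT2 2.1.0), freed of duplicates (Picard 2.23.5) and filtered (SAMtools 1.9), peaks were called with exomePeak2 at default settings, and ChIPseeker 1.26 annotated them. Replicates were not pooled, since each condition had 1 pair. Each deposited list gives 1 value per peak, in a column headed as log2 fold change. Its numbers, from 4.19 to over 300, cannot be one, so this deposited value was treated as a score that ranks peaks within a list.

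Peaks were placed on GENCODE M21 (GRCm38, the assembly of mm10), each on the same-strand transcript that holds both peak ends in exons, where a coding transcript had precedence and then a longer one. Sequence came from the GRCm38 genome. Distances are spliced bases. Overlap meant at least 1 base of the span on the same strand. Windows outside peaks were all windows of equal length in the same 3′ UTRs that touch no peak. Genes were named by a rule: in each list the 5 peaks of highest score, the 3 of highest score found in no other list and the 3 genes with most peaks, and across lists 8 recurring in all 4, 5 in the DMSO lists without rhein and 5 in rhein alone. Group genes were named when in all 4 lists or among the 3 of highest score of a list. A gene withheld for evaluation is not reported here by name. Other named genes were chosen after their values were seen. The members and the gene lists were chosen with earlier results of these data known.

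No test was run over peaks, which are not replicates. The stricter threshold was changed after values were seen. It was first an adjusted p of 0.001, reading the score as minus log2 of p (score above 9.97), and 1e-10 was computed as well. As the lowest score, 4.19, would on that reading fall short of the usual 5% limit and the scale is not established, the upper 50% of each list by score replaced it, and limits at 25% and 10% were added. All 5 are reported. Other alternatives were the overlap, list length, transcript, window, motif, members and rhein list. Placement was tested on simulated peaks. Python 3.11.15, NumPy 2.4.6, pandas 2.3.3, pysam 0.24.0 and Matplotlib 3.10.9 were used. The lists give no read numbers, so the depth per library is unknown.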

Additional observations from a re-analysis of the deposited data

How the results depend on the processing

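The order of the lists changed under some alternatives, with DMSO MCE going from the lowest recurrence to the highest in lists of equal length, and from the lowest share with GGAC to the highest at scores above 9.97. Of the 153 alternative values of the main results, 65 stayed within the counting interval of the reported value, or within 1.5 times a count, and 88 moved out of it. No paired analysis was possible because each condition had 1 pair of libraries and no test was run. For the same reason no replicate could be left out. Values follow in the order DMSO Pre, DMSO MCE, DMSO Diff and rhein MCE unless a list is named. The upper 50% of each list by score held 669, 1173, 655 and 634 3′ UTR peaks, and scores above 9.97, the reading as an adjusted p under 0.001 that was computed first and then replaced, held 457, 449, 406 and 340, where DMSO Pre had the most. Cut to the shortest list, DMSO MCE held 1289. At the upper 50% the median length was 200 (DMSO MCE), 175 (DMSO Diff) and 200 (rhein MCE) bases, the share of genes with 2 or more peaks 14.4%, 17%, 15.2% and 12.5%, recurrence 58.6% (DMSO Pre) and 62.1% (DMSO Diff), and GGAC 50.4% (DMSO Pre) and 58.3% (DMSO MCE). At scores above 9.97 the median length was 225 (DMSO MCE), 200 (DMSO Diff) and 221 (rhein MCE), genes with 2 or more peaks 13.1%, 12.2%, 14.2% and 12.3%, recurrence 44.6%, 58.1%, 54.7% and 62.4%, GGAC 48.5%, 68.4%, 56.9% and 57.4%, and the share within 200 bases of the stop codon 39.4% (DMSO MCE). Any exonic base in a 3′ UTR of the strand gave 84.5%, 83.9%, 82.2% and 83.6%, and any coding transcript 76.7% (DMSO MCE). Within 100 and 400 bases of the stop codon lay 17%, 20.6%, 18.1% and 16.8%, and 54.7%, 56.2%, 53.1% and 53.6%. Measured from the 5′ end of the peak it was 43.1%, 46.4%, 43.2% and 43.0% within 200 bases. Within 100 and 400 bases of the transcript end lay 6.20%, 4.43%, 5.90% and 8.24%, and 22.7%, 21.6%, 22.2% and 23.9%, and with the shortest 3′ UTR 15.0%, 14.7%, 16.1% and 17.8% lay within 200. Genes with 2 or more peaks were 23.9%, 27.0% and 27.0% of the DMSO lists by the symbol column, and 15.7%, 18.0%, 17.4% and 18.4% with gaps of at most 50 bases joined, an alternative chosen after seeing the data. An overlap of 50% of both peaks gave a recurrence of 49.4%, 34.4%, 47.7% and 51.3%, and lists of equal length 59.8%, 67.4%, 62.7% and 66.7%. GGAC in the middle 100 bases was at 50.7%, 49.6%, 49.8% and 48.1%, and DRACH at 87.8%, 88.2%, 88.4% and 89.7%. Without peaks in exons of both strands, also chosen after seeing the data, recurrence stayed within its interval in all 4 lists. Beyond the effect of shorter lists, wider windows or looser rules by construction, the cause was not tested. The depth is unknown, so a peak absent from a list says only that it was not called there.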

Other observations

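Ribosomal protein genes, which make the structural proteins of the ribosome, held 3′ UTR peaks in 7, 5, 16 and 12 of 82 genes in DMSO Pre, DMSO MCE, DMSO Diff and rhein MCE, and in no gene in all 4 lists. Ribosomal protein genes with any peak numbered 8, 10, 23 and 15, so that the share with a 3′ UTR peak among these was 87.5%, 50%, 69.6% and 80%. RNA-binding motif, hnRNP and Srsf genes, which act in splicing and RNA transport, held them in 3, 12, 5 and 13 of 70, with Hnrnpa0 in all 4. Those with any peak numbered 8, 26, 11 and 23. Ubiquitin ligases and Usp proteases held 3′ UTR peaks in 18, 33, 12 and 19 of 286, or of 26, 55, 21 and 31 with any peak. Of these, Rnf225 had a peak more than 1900 bases after the stop codon in every list, at a score of 12.3, 28.8, 31.4 and 23.5.

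Zinc finger proteins held 3′ UTR peaks in 15, 30, 11 and 12 of 394 genes, or of 25, 48, 24 and 18 with any peak. In all 4 lists were 7 genes, among them Zfp91, whose peaks near the stop codon scored 27.9, 15.2, 27.9 and 23.0. Solute carriers held 3′ UTR peaks in 7, 17, 14 and 9 of 342, or of 13, 24, 14 and 13 with any peak. The glucose transporter gene Slc2a1 held them in all 4 lists. Histones held them in 2, 4, 2 and 5 of 101, or of 5, 13, 5 and 11 with any peak. The linker histone genes H1f0 and Hist1h1c were the pair in all 4 lists. Hist1h1c scored 5.45, 37.1, 6.85 and 7.03, with the high value in DMSO MCE. Kinesins and myosins held 3′ UTR peaks in 2, 8, 3 and 3 of 64, or of 6, 10, 5 and 5 with any peak. Transmembrane (Tmem) genes held them in 6, 23, 9 and 7 of 242, or of 7, 27, 11 and 10 with any peak. Rab and Arf genes held them in 4, 8, 3 and 5 of 65, or of 7, 13, 6 and 6 with any peak. Rab13 held them in all 4 lists at 10.9, 14.5, 10.5 and 7.48.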
